A study of Mus musculus with 6 samples.

Results

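Caveolae are small flask-shaped pits of the plasma membrane, and the genes that build them were followed here in cultured aortic smooth muscle cells of the mouse. The members were taken by gene symbol from the platform annotation, with Ptrf, Sdpr and Prkcdbp as the older names of Cavin1, Cavin2 and Cavin3. This gave 16 probes of 7 genes (Cav1, Cav2, Cavin1, Cavin2, Cavin3, Ehd2 and Pacsin2) among the 45281 probes and 19057 named genes of the array. The study compared wild-type with FHL2-knockout C57Bl/6 mice, in which the LIM-only adaptor protein FHL2 is lost. Each genotype had 3 culture batches, each pooled from 3 aortas (9 mice per genotype), and RNA was taken from confluent cells after 48 h in serum-free medium. Each batch was hybridised to 1 Illumina beadchip array. Age and sex of the mice, the design of the deleted allele and the slide positions are not given in the sources used here.

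In a caveola, caveolins insert as a hairpin into the inner leaflet of the membrane and bind cholesterol, and cavins assemble on them from the cytosol as a peripheral coat. EHD2, an ATPase, forms rings at the neck that hold the pit at the surface, and PACSIN2, an F-BAR protein, bends the membrane at that neck. Smooth muscle, endothelium and fat cells are rich in caveolae, which buffer membrane stretch and gather receptors, ion pumps and signalling proteins.

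Median raw intensity per array ranged from 116 to 172, and 14844 to 16115 probes were detected per array, at a detection p under 0.05. A probe was kept for testing when it was detected on at least 3 of the 6 arrays, which left 15527 probes. Values below are normalized log2 intensities, differences are knockout minus wild-type, and a probe is called higher or lower at a limma adjusted p under 0.05. Fhl2 itself was 23.8-fold lower by its brighter probe, which read 11.23, 11.37 and 11.51 in wild-type and then 6.70, 6.65 and 7.04 in knockout cells. Its dimmer probe was detected on 3 wild-type and 0 knockout arrays. The labelled genotype and the Fhl2 signal went together on all 6 arrays. The smooth muscle actin gene Acta2 was bright in both genotypes, at 14.61 in wild-type against 15.12 in knockout batches, while the contractile marker Cnn1 was not detected on any array. Xist, the RNA of the inactive X chromosome, was detected by its 4 kept probes on 3 wild-type and 0 knockout arrays. Its signal split the arrays as genotype does, so a sex difference between the pools cannot be told apart from genotype in any difference below.

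Of the 16 caveola gene probes, 12 were kept, and each of the 7 genes kept at least 1. Cavin2 and Ehd2 rose in knockout cells, by 2.31-fold and, at its brightest probe, 2.53-fold. A dim Pacsin2 probe passed too, but its wild-type level lay at background and the call held in only 5 of its 14 alternatives. Cav1, Cav2, Cavin1 and Cavin3 did not pass. In all, 3 of the 12 probes (25%) were higher and 0 were lower, against 14.4% higher and 15.2% lower (29.6% in either direction) among all tested probes. Among the 3 was that Pacsin2 probe, which entered the test through the knockout arrays, and of the 11 probes detected on all 6 arrays 2 were higher. Counted by the brightest kept probe, 2 of the 7 genes were higher and 0 lower, where 14.8% and 16.5% of the 9051 measured genes were. Brightness was ranked by the mean over all 6 arrays, so the knockout level had a part in the choice. In wild-type batches the Ehd2 probe so chosen averaged 7.15, below the 7.28 of ILMN_2554000, an Ehd2 probe that did not pass. The 2 groups did not overlap for 5 of the 12 probes, or 41.7%, close to the 44.4% of all tested probes. The median difference of the 12 probes was 0.32, and that of all tested probes was -0.00096. With a background this wide, these shares do not set the caveola genes apart.

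**Figure D1:**
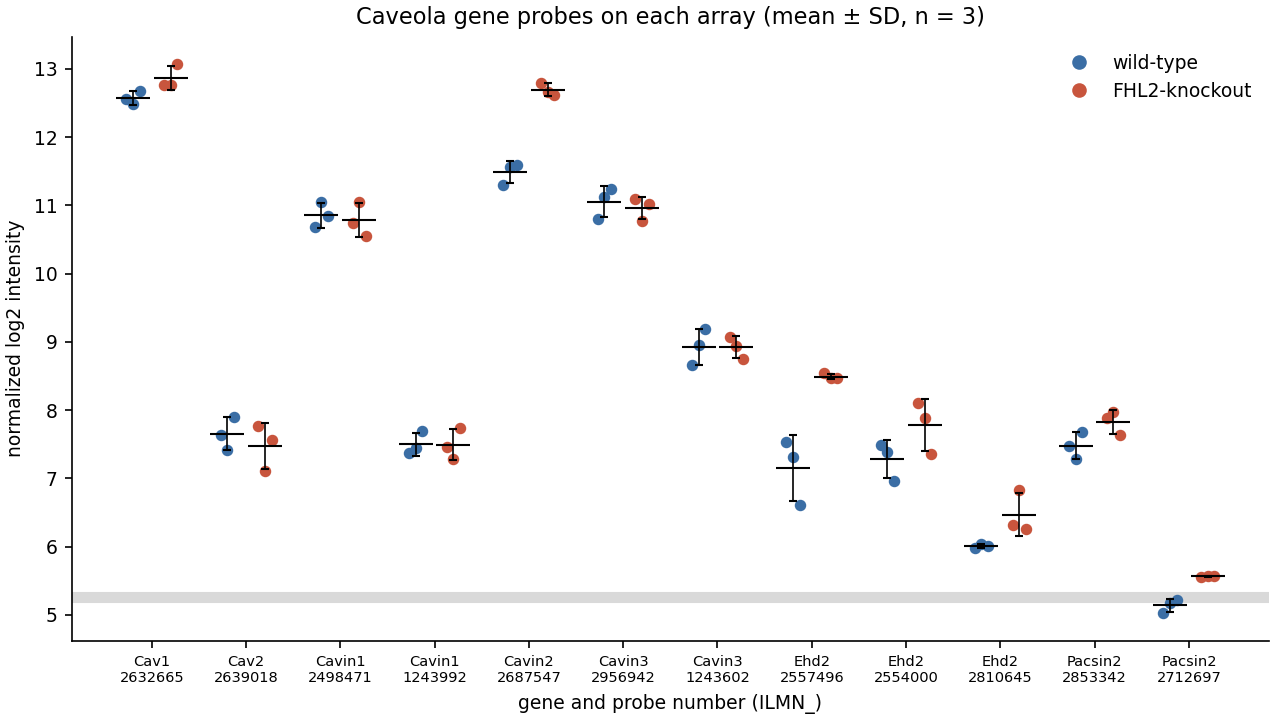
Normalized log2 intensity (vertical axis) of the 12 kept caveola gene probes on each of the 3 wild-type (blue) and 3 FHL2-knockout (red) arrays, with mean and SD; the grey band spans the lowest detected value of each array. Cavin2 and the first Ehd2 probe separate clearly between the genotypes, while both Cavin1 and both Cavin3 probes overlap.

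Cavin2 codes for a phosphatidylserine-binding cavin that shapes the caveolar membrane and helps recruit the other cavins. Its only probe, ILMN_2687547, read 11.30, 11.56 and 11.59 in the wild-type batches and 12.80, 12.66 and 12.61 in the knockout batches. Every knockout value lay above every wild-type value, and neither group spread widely. Before normalization the probe read 3536, 1612 and 3938 intensity units in wild-type and 7300, 7097 and 5608 in knockout batches, where wild-type replicate 2 was the dimmest array as a whole. The means were 11.48 ± 0.16 (SD, n = 3) and 12.69 ± 0.10 (SD, n = 3), a difference of 1.21 ± 0.13 (SE) with a limma adjusted p of 3.38e-04. The 95% interval ran from 0.90 to 1.51. The probe was bright and had a detection p of 0 on every array, and it was called higher under all 16 alternatives tried, with differences from 1.11 to 1.26.

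The other cavins did not pass. Cavin1 codes for the cavin without which caveolae do not form. Its brighter probe, ILMN_2498471, read 10.68, 11.05 and 10.85 in wild-type and 10.74, 11.04 and 10.55 in knockout batches, so the groups overlapped almost fully. The difference was -0.08 ± 0.17 (SE), with a 95% interval from -0.46 to 0.30 (limma adjusted p = 0.768). Its other probe, ILMN_1243992, read 7.37, 7.44 and 7.69 in wild-type and 7.46, 7.28 and 7.73 in knockout batches. The difference there was -0.01 ± 0.16 (SE), with an interval from -0.37 to 0.35, so the intervals of both probes together span knockout levels from 0.727 to 1.28 times the wild-type level. Cavin3 codes for a cavin that binds protein kinase C delta, and its probes also overlapped between the genotypes. ILMN_2956942 read 10.80, 11.12 and 11.24 in wild-type and 11.08, 10.77 and 11.02 in knockout batches, a difference of -0.10 ± 0.16 (SE) with an interval from -0.46 to 0.27. ILMN_1243602 read 8.65, 8.95 and 9.18 in wild-type and 9.07, 8.93 and 8.75 in knockout batches, a difference of -0.01 ± 0.17 (SE) with an interval from -0.39 to 0.37. Neither passed (limma adjusted p = 0.697 and 0.970).

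Cav1 codes for the principal caveolin of smooth muscle. Its only probe, ILMN_2632665, was among the bright ones and read 12.55, 12.49 and 12.68 in wild-type and 12.76, 12.76 and 13.07 in knockout batches. The groups did not overlap, but the gap between the highest wild-type and the lowest knockout batch was small beside the spread of the knockout batches. The difference of 0.29 ± 0.14 (SE), with an interval from -0.02 to 0.60, did not pass (limma adjusted p = 0.150). It was called higher in 2 of the 16 alternatives, with no background correction (adjusted p = 0.0227) and with a variance model that follows intensity (adjusted p = 0.0216). Cav2 codes for the caveolin that pairs with CAV1 and needs it to reach the surface. Its detected probe, ILMN_2639018, read 7.64, 7.42 and 7.90 in wild-type and 7.76, 7.10 and 7.56 in knockout batches. The groups overlapped, and the difference was -0.18 ± 0.20 (SE), with an interval from -0.64 to 0.28 (limma adjusted p = 0.553). A further Cav2 probe, ILMN_2689037, was not detected on any array, with detection p from 0.270 to 0.963. Cav1 and Cav2 are neighbours on chromosome 6, with 0 annotated genes between them in the RefSeq annotation of GRCm38.p6.

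Whether Cavin2 changed unequally to the other coat genes was tested on its log2 intensity minus theirs within each array. Cavin2 was set against them with its own call, and the lack of one for them, known. That choice favours a separation, and Cav2 was not compared. The knockout-minus-wild-type change of Cavin2 exceeded that of Cav1 by 0.92, that of Cavin1 by 1.28 and that of Cavin3 by 1.30, each by the brightest probe. In each pair the 3 knockout arrays lay above the 3 wild-type arrays. The two-sided exact permutation p was 0.1 for each, also after adjustment over the 5 such comparisons made. As 0.1 is the smallest p that 3 against 3 arrays can give, the test could not decide the question.

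Ehd2 had 5 probes, of which 3 were kept, with differences from 0.46 to 1.34. The brightest, ILMN_2557496, read 7.54, 7.31 and 6.60 in wild-type and 8.54, 8.47 and 8.46 in knockout batches. The knockout batches were tightly grouped and all higher, while wild-type replicate 3 was lower than the other wild-type batches. The difference was 1.34 ± 0.23 (SE), with an interval from 0.82 to 1.86 (limma adjusted p = 2.99e-03), and it passed under all 16 alternatives, with values from 0.82 (no background correction) to 1.53. ILMN_2554000 read 7.49, 7.38 and 6.97 in wild-type and 8.11, 7.89 and 7.36 in knockout batches, with overlapping groups. Its difference of 0.51 ± 0.22 (SE) did not pass (limma adjusted p = 0.125), but it was called in 4 of its 16 alternatives, among them without knockout replicate 3 (0.72, adjusted p = 0.0348). ILMN_2810645 read 5.98, 6.03 and 6.01 in wild-type and 6.32, 6.82 and 6.26 in knockout batches, without overlap but with a wider knockout group. Its difference of 0.46 ± 0.17 (SE) did not pass either (limma adjusted p = 0.0730).

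The brightest Ehd2 probe exceeded the other kept Ehd2 probes in its change by 0.83 and 0.88. That probe was set against the others with its large change known, and 3 against 3 arrays could not decide the comparison (two-sided exact permutation p = 0.1 for each, the smallest possible). The platform annotation ties it and ILMN_2554000 to cDNA clones and ILMN_2810645 to the RefSeq transcript. The probe sequences were not used here, so the part of the transcript that each one reads is not known. The remaining probes, ILMN_1255622 and ILMN_2698921, were not detected on any array. Averaged over its 3 kept probes, a step chosen after the values were seen, Ehd2 rose 1.70-fold, from 6.81 ± 0.25 to 7.58 ± 0.19 (SD, n = 3 each; difference 0.77 ± 0.16 SE, limma adjusted p = 7.16e-03 over 9051 gene means).

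Pacsin2 had 2 kept probes of 3. The brighter, ILMN_2853342, read 7.47, 7.28 and 7.68 in wild-type and 7.89, 7.97 and 7.63 in knockout batches. The groups overlapped through the lowest knockout batch, and the difference of 0.35 ± 0.15 (SE) did not pass (limma adjusted p = 0.123). The dimmer, ILMN_2712697, read 5.02, 5.17 and 5.21 in wild-type and 5.55, 5.56 and 5.57 in knockout batches. It was detected on 1 wild-type and 3 knockout arrays, so its wild-type level lay at background and it entered the test through the knockout arrays. Its difference of 0.42 ± 0.12 (SE) passed (limma adjusted p = 0.0261), but only in 5 of its 14 alternatives. The call was lost without wild-type replicate 1 or 2 and without any 1 of the 3 knockout replicates (adjusted p from 0.0558 to 0.0816 in these cases). The remaining probe, ILMN_1248252, was not detected on any array. Averaged over its 2 kept probes, again after the values were seen, Pacsin2 was called higher. The difference was 0.39 ± 0.11 (SE), with a limma adjusted p of 0.0299 over 9051 gene means. That average includes the probe whose wild-type level lay at background. By such averages Cavin2, Ehd2 and Pacsin2 were called higher, and Cav1, Cav2, Cavin1 and Cavin3 did not pass. The Pacsin2 call draws on that dim probe, and the share of all 9051 gene means that were called was not counted.

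**Figure D2:**
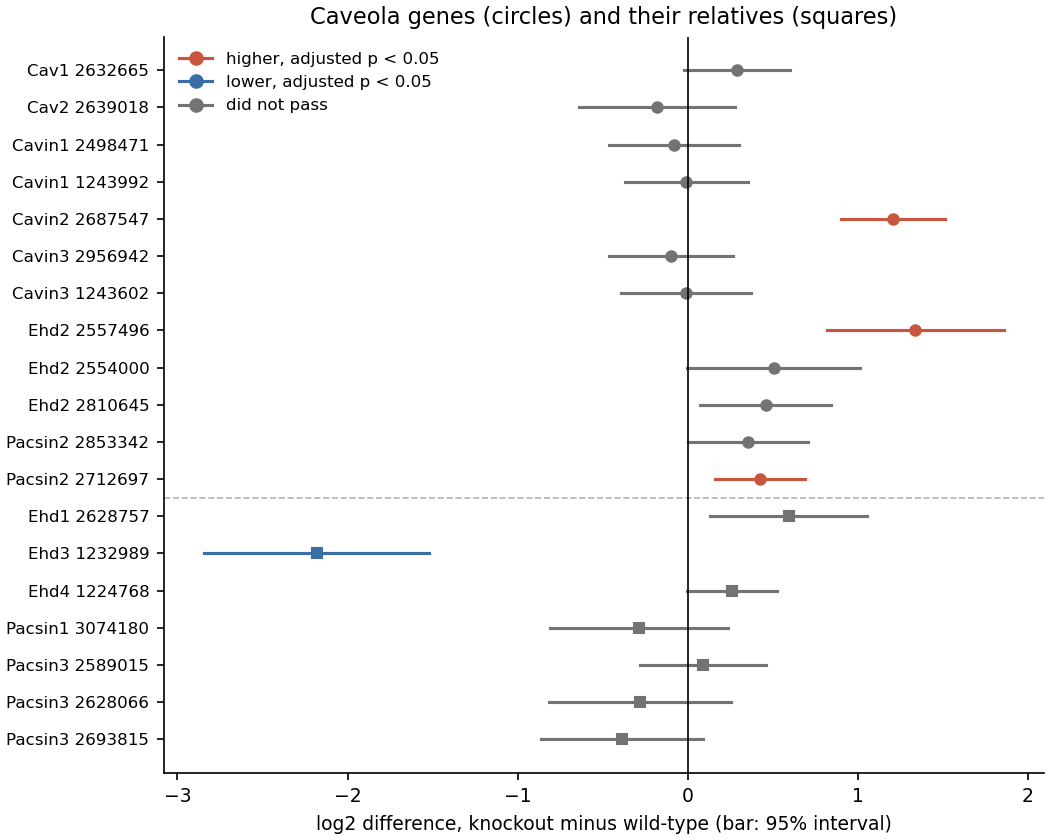
Log2 difference, knockout minus wild-type (horizontal axis), with 95% interval for each kept probe of the caveola genes (circles) and of their relatives (squares). Cavin2, 1 Ehd2 probe and 1 Pacsin2 probe lie to the right with adjusted p under 0.05, and Ehd3 lies far to the left at -2.18.

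Of 7 relatives of the members, 5 were measured, and 0 were higher and 1 (20%) lower by the brightest kept probe, against 14.8% and 16.5% of all measured genes. Ehd3, which codes for an EH-domain ATPase of endocytic recycling, fell by 2.18 ± 0.29 (SE) on the log2 scale (limma adjusted p = 8.68e-04). Its level went from 8.41 ± 0.32 to 6.23 ± 0.58 (SD, n = 3 each), opposite in direction to Ehd2 and with no overlap between groups. With no background correction its difference was -1.17. Ehd1 and Ehd4, further ATPases of this family, gave 0.59 ± 0.20 (SE) and 0.26 ± 0.12 (SE) and did not pass (limma adjusted p = 0.0572 and 0.128). Pacsin1 and Pacsin3, the other members of the PACSIN family, gave -0.29 ± 0.23 (SE) and -0.39 ± 0.21 (SE) without passing (limma adjusted p = 0.390 and 0.204). Cav3 and Cavin4, the caveolin and cavin of striated muscle, each had 1 probe, and neither was detected on any array.

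Upstream sequences of the gene starts are shown for both genes with a called bright probe, Cavin2 and Ehd2, and for Cav1 and Cavin1, which did not pass. They come from RefSeq, build GRCm38.p6, and cover the 250 bases before the annotated start on the strand of the gene. Cavin2 lies at chr1:51288876-51289125 (plus strand), Cav1 at chr6:17306085-17306334 (plus), Cavin1 at chr11:100970618-100970867 (minus) and Ehd2 at chr7:15967536-15967785 (minus). Capitals mark matches, on either strand, to the CCAAT box (CCAAT), the GC box (GGGCGG), the TATA element (TATAAA) and the M-CAT element (CATTCC).
Cavin2: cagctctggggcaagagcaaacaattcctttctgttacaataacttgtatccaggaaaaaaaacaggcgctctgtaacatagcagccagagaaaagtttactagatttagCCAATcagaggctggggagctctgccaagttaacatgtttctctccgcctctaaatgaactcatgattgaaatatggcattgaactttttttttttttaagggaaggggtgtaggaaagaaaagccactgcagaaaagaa
Ehd2: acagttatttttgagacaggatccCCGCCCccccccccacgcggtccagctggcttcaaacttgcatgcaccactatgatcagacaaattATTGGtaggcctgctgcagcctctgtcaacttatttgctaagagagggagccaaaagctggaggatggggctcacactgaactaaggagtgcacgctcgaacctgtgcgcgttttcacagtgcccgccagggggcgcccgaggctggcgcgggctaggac
Cav1: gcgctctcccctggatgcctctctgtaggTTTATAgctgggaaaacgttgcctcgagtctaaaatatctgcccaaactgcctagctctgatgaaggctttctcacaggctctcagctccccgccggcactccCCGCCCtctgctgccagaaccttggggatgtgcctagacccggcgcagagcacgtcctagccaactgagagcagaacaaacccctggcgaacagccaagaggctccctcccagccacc
Cavin1: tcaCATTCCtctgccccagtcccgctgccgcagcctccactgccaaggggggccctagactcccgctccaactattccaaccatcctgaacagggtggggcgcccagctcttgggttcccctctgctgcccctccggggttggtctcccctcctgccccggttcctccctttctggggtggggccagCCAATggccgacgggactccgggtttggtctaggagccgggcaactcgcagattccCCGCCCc

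The Cavin2 window had a GC content of 40.4%, lower than the 58.0% of Ehd2, the 59.6% of Cav1 and the 67.6% of Cavin1, and below the median of 52.4% over all 32851 windows. It held no GC box, an element found in 32.7% of all windows. The windows of a second annotated Cav1 start and of 2 of the 3 Pacsin2 starts held none either. A CCAAT match stood in the windows of Cavin2, Ehd2 and Cavin1 and in 33.9% of all windows. The TATA match of Cav1 (in 12.4% of all windows) lay 221 to 216 bases before the start. The AP-1 site (TGANTCA, 6.75% of all windows) was matched upstream of Cav2 and at a second start of Pacsin2. The CArG box, the binding element of serum response factor (1.47% of all windows), was matched in 0 of the 10 windows that 6 of the 7 members had in the table. These matches are descriptions of the letters in the windows.

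Genes whose products work in or beside caveolae were counted from a separate list of 46. Of these, 27 were measured, and 6 (22.2%) were higher and 3 (11.1%) lower, near the 14.8% and 16.5% of all measured genes. The median difference was 0.11. Atp2b1, a plasma membrane calcium pump detected on 2 of 3 wild-type arrays, rose from 5.89 ± 0.51 to 7.53 ± 0.12 (SD, n = 3), a difference of 1.64 ± 0.24 (SE, limma adjusted p = 1.44e-03). With no background correction it was 0.72. Slc8a1, the sodium-calcium exchanger, rose by 1.22 ± 0.15 (SE) at its brightest probe (limma adjusted p = 5.33e-04), while its other kept probe gave -0.25 ± 0.19 (SE, adjusted p = 0.371). Other calcium genes of the list did not pass, with -0.09 ± 0.24 (SE) for the calcium pump Atp2b4 and 0.36 ± 0.16 (SE) for the brightest probe of the channel Trpc1 (adjusted p = 0.814 and 0.137). Flna codes for filamin A, an actin crosslinker that binds CAV1 and ties caveolae to stress fibres, and it rose by 1.05 ± 0.13 (SE, limma adjusted p = 5.83e-04). Dag1 (dystroglycan) and Npc1, which exports cholesterol from lysosomes, each rose by 0.60, and Prkca, a protein kinase C, by 0.42. These 3 calls were lost when arrays were scaled by their medians. The Dag1 call was also lost with no filter and without wild-type replicate 2 or 3 or knockout replicate 2 or 3 (adjusted p from 0.0524 to 0.0803). The Prkca call was lost without wild-type replicate 2 or any 1 of the knockout replicates (adjusted p from 0.0596 to 0.0748), and the count of higher genes was 4 without knockout replicate 2 or 3.

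Snx9, which codes for a dynamin-binding sorting nexin, fell by 1.19 ± 0.17 (SE) on the log2 scale (limma adjusted p = 1.45e-03), and by 0.54 with no background correction. Tgfbr1, a TGF-beta receptor, fell by 0.52 at its brightest probe, while a dim probe gave 0.36 (adjusted p = 0.113). Gnaq, the G-protein alpha subunit of many contractile receptors, fell by 0.39 at its brightest probe, and its next kept probe gave -0.36 (adjusted p = 0.0649). A further Gnaq probe, not detected on any knockout array, was at least 1.70-fold lower (adjusted p = 3.07e-03). The Tgfbr1 and Gnaq calls were lost with median scaling and each without several single arrays, so that the count of lower genes was 1 without wild-type replicate 2 or 3 and without knockout replicate 1 or 2. The flotillin genes Flot1 and Flot2, which mark another kind of membrane microdomain, gave -0.08 ± 0.12 (SE) and 0.24 ± 0.13 (SE) and did not pass. Endothelial nitric oxide synthase (Nos3) and its caveolar partner Nostrin had no kept probe.

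**Figure D3:**
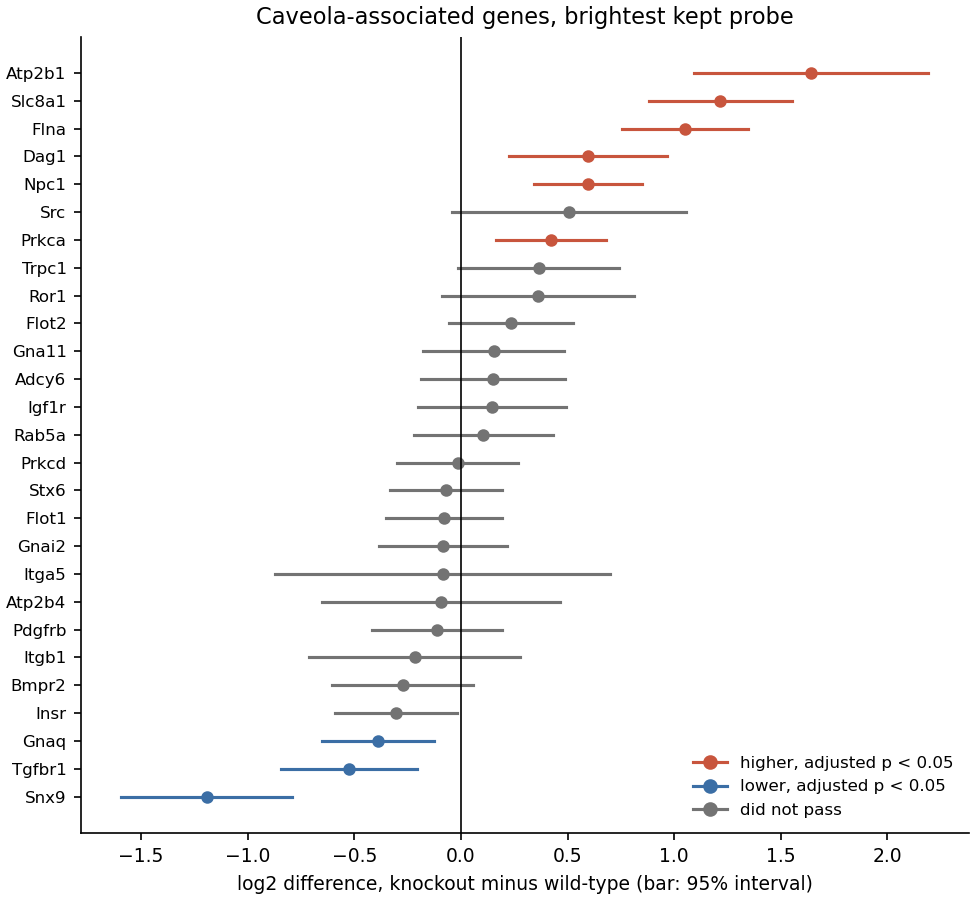
Log2 difference, knockout minus wild-type (horizontal axis), with 95% interval for the 27 measured genes of the caveola-associated list, sorted by difference. The 6 genes called higher (red) are led by Atp2b1, Slc8a1 and Flna, and the 3 called lower (blue) by Snx9.

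Several markers of other caveola-bearing cells moved with the genotype. In bulk RNA, fewer cells of a type and less RNA per cell cannot be told apart. Of 12 endothelial markers, 6 were detected on all wild-type and on no knockout arrays, among them Emcn (at least 27.9-fold lower), Egfl7 and Esam. These bounds set the brighter mean against the lowest detected signal of each array of the dimmer genotype. The log2 of the summed intensity over the 7 measured endothelial markers ran from 10.68 to 11.08 in wild-type and from 7.72 to 7.87 in knockout batches. Kdr, the remaining measured one, was detected on 1 wild-type and 3 knockout arrays. It gave 0.30 ± 0.20 (SE) and did not pass (limma adjusted p = 0.303). The share of all genes detected in wild-type cells only was not counted. Of the 9 adipocyte markers, 3 were measured and their sum ran from 10.24 to 10.55 in wild-type and from 8.87 to 9.28 in knockout batches. That sum was mostly Plin4, at 10.03 in wild-type and 8.65 in knockout batches. Plin4 (-1.38) and Pparg (-2.08) were called lower, while Lep gave 0.54 and did not pass (limma adjusted p = 0.0789). Adipoq was detected on 1 array, and Fabp4 and Cidec on 0.

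The measured mesothelial and epithelial markers went the other way. The sum over 4 measured of 9 ran from 7.02 to 7.25 in wild-type and from 11.34 to 11.45 in knockout batches. Msln (at least 7.15-fold higher) and Upk1b (at least 45.6-fold higher) were detected on all knockout and no wild-type arrays. Of those not kept, Krt8 was detected on 1 knockout array, Krt19 on 2 knockout arrays, Krt18 on 1 wild-type array and Lrrn4 on 0 arrays. Smooth muscle markers were also higher as a sum, from 14.51 to 14.85 in wild-type and from 15.22 to 15.37 in knockout batches over 8 measured of 10. Of these 4 were called higher and 0 lower, against 14.8% and 16.5% of all measured genes, and the sum was mostly Acta2, at 14.61 and 15.12. Besides Acta2, those called were Actg2 (3.89), Tpm2 (1.22) and Lmod1 (1.09), while Myh11 (0.74), Tagln (0.25), Smtn (0.10) and Des (-0.18) did not pass. Sums of 6 measured adventitial fibroblast markers ran from 13.48 to 13.51 in wild-type and from 13.79 to 14.03 in knockout batches, with 2 higher and 3 lower. This rise followed Dcn, the brightest, at 12.41 and 13.78, and went against most called markers. Pi16 was higher too (2.05), while Pdgfra (-2.48), Lum (-2.32) and Scara5 (-2.59) were lower. Those of the 3 measured striated muscle markers ran from 7.39 to 7.94 and from 6.52 to 6.86, and those of the 2 measured macrophage markers from 8.54 to 8.84 and from 6.66 to 6.95. Of the striated markers Acta1 was called lower (-1.78), while Ttn (-0.69) and Mb (0.06) did not pass. The macrophage fall was that of Lyz2 (-2.41), as Csf1r gave -0.00099 (limma adjusted p = 0.997). The part of these shifts in the Cavin2 and Ehd2 differences was not tested.

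By the smallest root mean square distance between mean-centred log2 values over the 6 arrays, the genes most like Cav1 among 9051 were Sergef (0.027), Emc4 (0.040) and Lmtk2 (0.049). The genes most like Cavin1 were Efna4 (0.062), Mtrex (0.064) and Fbxl8 (0.067). None of these 6 passed the test between genotypes. They were chosen on the same arrays for closeness to Cav1 and Cavin1, which did not pass, so that outcome was largely fixed by the choice.

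**Figure D4:**
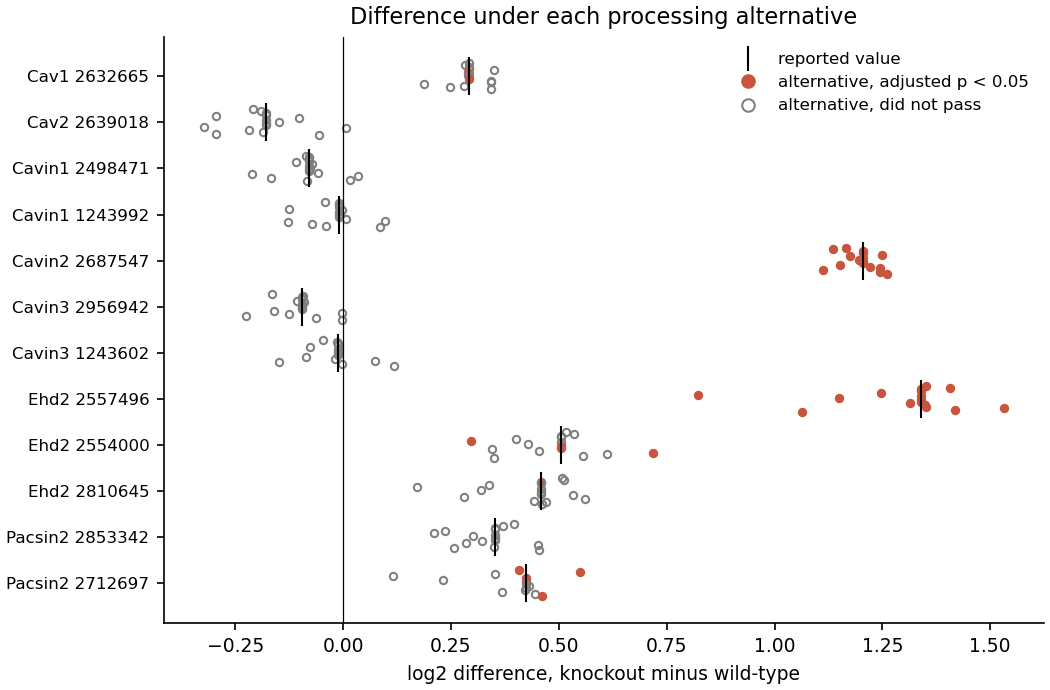
Log2 difference, knockout minus wild-type (horizontal axis), of each caveola gene probe under each processing alternative; filled red points have an adjusted p under 0.05 and black bars mark the reported value. Cavin2 stays between 1.11 and 1.26 and the first Ehd2 probe between 0.82 and 1.53, while both Cavin1 probes scatter around 0.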

How the data were processed

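RNA of 3 wild-type and 3 FHL2-knockout cultures was measured on 1-colour Illumina beadchips, grouped and numbered by the sample titles. The deposited table holds raw bead intensities, with no background subtracted and no scaling as the values show, and a detection p-value per probe and array, per the file headers. The authors also deposited a matrix of normalized log2 values. GenomeStudio 2011.1, limma 3.10.2 and R 2.14.0 appear in the submitters' processing notes without a role; how that matrix was background-corrected is not stated there.

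Here limma 3.58.1 under R 4.3.3 normalized the intensities (neqc: normexp background from the detection p-values, offset 16, quantile normalization, log2), which assumes like distributions in both genotypes and shrinks differences of dim probes. Probes with detection p under 0.05 on at least 3 arrays were kept. Differences were tested with lmFit and eBayes and adjusted by Benjamini-Hochberg over all 15527 kept probes; the fit was tested on simulated data. Errors are SDs of the replicate values, given beside group means, and moderated standard errors of differences. Replicates are culture batches, so p-values measure the spread between them. Symbols came from the platform annotation, updated through RefSeq (GRCm38.p6), so that 34885 probes had 1 symbol, 18 had several and 10378 had none. Genes stand for their brightest kept probe.

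Members and gene lists were chosen with earlier results of these data known. Named by rule were all members, their relatives, Fhl2, the called associated genes with the largest differences (up to 4 each way), up to 3 markers per list detected in 1 genotype only, and the 3 genes most like Cav1 and Cavin1. Npc1, Prkca, Atp2b4, Trpc1, Flot1, Flot2, Nos3, Nostrin, Acta2, Cnn1, Adipoq, Fabp4, Cidec and Xist were named after their values were seen. So were the markers Kdr, Plin4, Pparg, Lep, Dcn, Pi16, Pdgfra, Lum, Scara5, Acta1, Mb, Lyz2 and Csf1r. The same holds for Actg2, Tpm2, Lmod1, Myh11, Tagln, Smtn, Des, Krt8, Krt18, Krt19 and Lrrn4. Alternatives covered the background correction, normalization, source of values, filter, variance model, array weights, replicate block and each array left out.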

Additional observations from a re-analysis of the deposited data

How the results depend on the processing

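Over all alternatives the count of caveola gene probes called higher stayed between 2 and 4 (3 as reported) and the count called lower was 0. Scaling arrays to equal medians in place of quantile normalization gave 685 probes higher and 1082 lower over the whole table, against 2235 and 2361, and 3 associated genes higher and 1 lower, against 6 and 3. With no background correction 5 associated genes were lower. The causes were not tested. Leaving out 1 array at a time gave 1 to 3 associated genes lower. Over these fits the sign turned for 4 member probes that had not passed, with differences from -0.32 to 0.0065 for Cav2 ILMN_2639018, from -0.13 to 0.096 for Cavin1 ILMN_1243992, from -0.21 to 0.035 for Cavin1 ILMN_2498471 and from -0.15 to 0.12 for Cavin3 ILMN_1243602. The dimmer Pacsin2 probe and ILMN_2554000 of Ehd2 are the member probes whose call changed under 4 or more settings, and dim probes lost size without background correction.

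Same-numbered arrays deviated together only weakly (r = 0.118, 0.073 and 0.064), so the numbers were not taken to pair the samples, although each array correlated best with its own number. With the number as a replicate block, 4 member probes were higher and 0 lower, with Ehd2 ILMN_2554000 (adjusted p = 0.0291) added to the 3 reported, 6 associated genes were higher and 2 lower, and 2147 and 2258 of all probes were.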
